A study of Homo sapiens with 12 samples.

Results

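IGROV1 is a human ovarian carcinoma cell line, and its expression profile was set against 3 other ovarian cancer cell lines, SKOV3, TOV112D and TOV21G. Its members are the 3 arrays titled IGROV1 of 12 arrays in all, chosen by title alone, with 3 arrays in each of the other lines. All 4 lines were parental and untreated. SKOV3 had DMEM as its culture medium, and IGROV1, TOV112D (titled T112D) and TOV21G had RPMI, each with fetal calf serum, so medium and line cannot be told apart for SKOV3. Total RNA was hybridised to Affymetrix U133 Plus 2.0 arrays, on which a probe set is a group of short probes for 1 transcript. Each group is a single line, and the labels do not say that its arrays came from separate cultures. The spread behind the p-values is therefore that between arrays alone and may be technical.

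Ovarian carcinoma lines differ in how much of an epithelial programme they keep. Epithelial cells are held together by E-cadherin junctions and a keratin skeleton, and transcription factors of mesenchymal transition such as TWIST1 and the ZEB and SNAI families repress that programme. Many ovarian carcinomas also carry factors of the Mullerian duct, the embryonic tube that forms the oviduct and uterus, among them PAX8 and SOX17.

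Levels are given as log2 values from robust multi-array averaging (RMA). This scale runs here from 1.478 to 13.999 with a median of 4.44 over all probe sets. Its floor is reached at about 2 to 3. A single level given for a line is the mean of its 3 arrays, and "or less" and "or more" refer to the means of the other 3 lines unless arrays are named. Of 54675 probe sets, those used measured 19775 genes. The 3 IGROV1 arrays agreed closely, with a median SD over genes of 0.089. They correlated at 0.9383 to 0.9395 with TOV21G, at 0.897 to 0.899 with the arrays labelled SKOV3 and at 0.8892 to 0.8909 with TOV112D; these are correlations across genes, which are not independent replicates. ERBB2, for whose amplification SKOV3 is known, was at 8.14 in the arrays labelled SKOV3, below all other lines and below the 9.01 of IGROV1. These arrays go against their label in this, so they are called "the arrays labelled SKOV3". The counts of all genes, of the classes and of some lists are given with and without them. A list given with 1 count only may also move when they are left out.

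The IGROV1 arrays were described with 4 epithelial markers. These were chosen with earlier results of these data known and are not particular to IGROV1, so they do not test its label. KRT19, a keratin of simple epithelia, was at 11.87, 11.82 and 11.84 in the 3 IGROV1 arrays, and the other 9 arrays had a lowest value of 2.63, a median of 3.08 and a highest of 4.16. CDH1, the gene of E-cadherin, was at 10.94, 10.92 and 10.94 in IGROV1 and at 2.52, 3.39 and 4.77 as lowest, median and highest elsewhere. EPCAM, an epithelial adhesion protein, was at 12.23, 12.12 and 12.16 against 3.24, 6.21 and 7.84. For these genes IGROV1 stood above every other array with no overlap, as it did for 13.2% of all genes tested. Of the 2 KRT19 probe sets, 1 lay above every other line. MAL2, a protein of apical transport, was at 12.52, 12.47 and 12.45 in IGROV1, but TOV21G came close with a mean of 9.86, while the remaining lines were below 3.

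Markers of other cells were examined in the same arrays. Of 10 leukocyte markers none was called in either direction, and the highest in IGROV1 was ITGAM at 4.85. The summed level of the list was 35.8 to 36.8 over the IGROV1 arrays and 37.0 to 38.8 over the other 9. Fibroblast markers summed to 37.5 to 38.1 in IGROV1, against 42.7 to 43.6 in TOV21G, 60.7 to 61.4 in the arrays labelled SKOV3 and 79.9 to 81.5 in TOV112D. Mesothelial markers were highest in IGROV1, at 41.5 to 43.1 against 28.9 to 35.4, with LRRN4 at 8.16 and MSLN at 7.30, while the mesothelial gene CALB2 was at 4.18. Among endothelial markers, PECAM1 alone was higher in IGROV1 than in each other line, at 6.33 against 5.14 or less. Embryonic markers summed to 46.0 to 46.4 in the arrays labelled SKOV3, with LIN28A at 12.16. Their sums were 21.2 to 21.7 in IGROV1, 20.7 to 21.4 in TOV112D and 27.1 to 27.8 in TOV21G. Granulosa cell markers summed to 28.1 to 28.9 in IGROV1 and to 26.4 to 33.1 elsewhere. What part these marker levels have in the results was not tested.

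The first comparison set IGROV1 against the mean of the 3 remaining lines, and the next ones against each line separately. Calls required an adjusted p under 0.05 (limma, Benjamini-Hochberg) and a log2 difference of 1 or more, which is 2-fold. Against the mean, 1424 genes (7.2% of those tested) were higher and 1404 (7.1%) lower in IGROV1. Against the arrays labelled SKOV3, 2008 genes were higher (10.2%) and 1706 lower (8.63%), against TOV112D 1798 (9.09%) and 1762 (8.91%), and against TOV21G 1156 (5.85%) and 1331 (6.73%). "Set apart" is used here for a gene called against all 3 lines with the same sign. This held for 518 genes as higher (2.62%) and 366 as lower (1.85%). In all 884 of them the 3 IGROV1 arrays lay outside the range of the other 9, which was so for 13.2% of all genes tested on the high side and 10.0% on the low side. Without the arrays labelled SKOV3, 662 genes (3.35%) were set apart as higher and 570 (2.88%) as lower, and all 884 genes were among them by construction.

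The gap, the difference between IGROV1 and the line nearest to it, was used to rank these genes. TOV21G was the nearest line for 313 of the 518 higher genes and 171 of the 366 lower genes. The median gap was 1.59 among the higher genes and 1.65 among the lower ones, and it was at least 4, or 16-fold, in 37 and 30 genes. ALDOC, an aldolase of glycolysis, lay just inside the limit with a gap of 1.02, and the claudin gene CLDN7 just outside with 0.99.

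After KRT19 (gap 7.79 ± 0.14, SE, to TOV21G, limma, adjusted p = 7.5e-13, n = 3 arrays per line), the widest gap among higher genes was that of DCAF12L1, at 10.20, 10.17 and 10.23 in IGROV1 and 2.51 to 2.97 elsewhere. HSPB3, a small heat shock protein of muscle, was at 9.40 against 3.08 or less. NOS1, the neuronal nitric oxide synthase, was at 9.47 against 3.36 or less, and 4 of its 6 probe sets lay above every other line. AQP1, a water channel of epithelia and vessels, was at 9.76 against 3.92 or less. CCNA1, a cyclin best known from the germ line, was at 8.85, and HENMT1, a methyltransferase of germ line small RNAs, at 9.77, with 3.27 and 4.50 as the highest single arrays elsewhere. Each of these genes stayed below 5 in all arrays of the other lines.

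Among the lower genes, ZDHHC2, a palmitoyltransferase, was at 2.73 in IGROV1 and at 8.57 to 9.77 elsewhere. KCTD15, known from neural crest development, was at 2.51 against 7.90 to 9.35. CDK6, the kinase that drives entry into the cell cycle with D cyclins, was at 4.36, 3.92 and 4.14 in the IGROV1 arrays, and the other 9 arrays had 9.29, 9.95 and 10.68 as lowest, median and highest (gap 5.22 ± 0.10, adjusted p = 4.3e-13). In 5 of its 7 probe sets IGROV1 lay below every other line. PRTFDC1 was at 5.57 against 10.42 or more, and CD109, a surface protein that binds TGF-beta, at 2.66 against 7.42 or more, by 1 of its 3 probe sets. All arrays of the other lines lay above IGROV1 for each of these genes, which follows from their choice by gap. This was so for 10.0% of all genes tested.

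**Figure D1:**
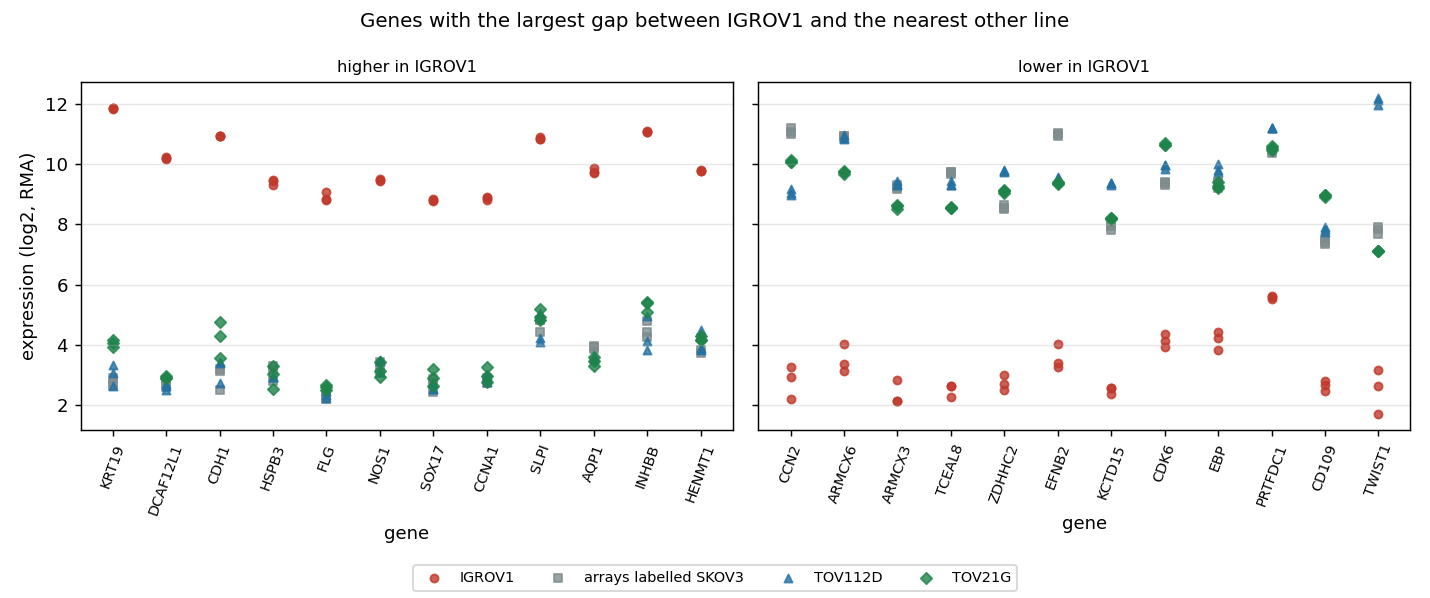
Expression (log2, RMA) of the 12 higher and 12 lower genes with the widest gap to the nearest line, leaving out dim genes and _x_at probe sets. TUSC3, with the widest gap among all lower genes (6.85), is left out by this rule. Each point is 1 array, with 3 per line, coloured by line. As the genes were chosen by gap, the IGROV1 points (red) stand clear of all 9 others in every gene. KRT19, for example, is at 11.82 to 11.87 against 4.16 or less.

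Genes were then grouped by function. Of 294 measured genes of surface proteins, 24 (8.16%) were set apart as higher and 7 (2.38%) as lower. Of 573 secreted protein genes, 34 (5.93%) were higher and 20 (3.49%) lower. Transcription factor genes numbered 473, with 20 (4.23%) higher and 15 (3.17%) lower, and metabolic genes 1094, with 41 (3.75%) higher and 23 (2.1%) lower. On the high side all of these shares lay above the 2.62% found over all genes, with the surface class farthest above. On the low side the secreted and transcription shares lay above the 1.85% of all genes, and the surface and metabolic shares were near it. The lists were drawn up with earlier results of these data known, so these shares are descriptive. The median difference from the other lines was within 0.04 of 0 in each class, against -0.01 over all genes. Without the arrays labelled SKOV3 the higher and lower genes numbered 32 and 12 in the surface class, 36 and 26 in the secreted class, 27 and 27 in the transcription class, and 55 and 39 in the metabolic class.

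**Figure D2:**
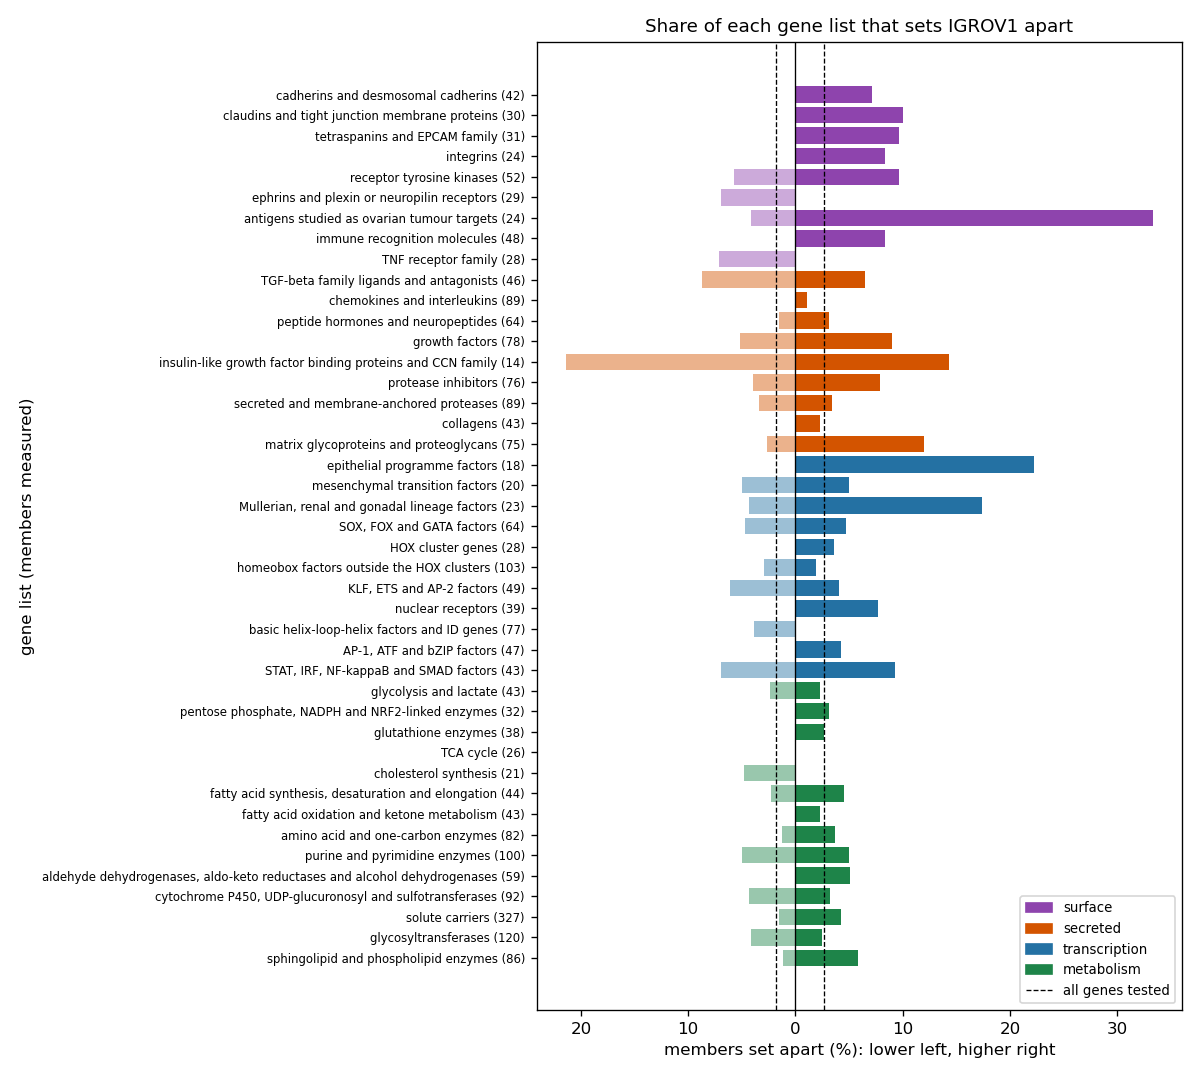
Share of each list's measured members (%) set apart as higher in IGROV1 (right, full colour) or lower (left, pale), coloured by functional class; dashed lines mark all genes tested, 2.62% and 1.85%. Antigens studied as ovarian tumour targets reach 33.3% on the high side, and the insulin-like growth factor binding protein and CCN list 21.4% on the low side.

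Adhesion and junction families held 11 of the 24 surface genes set apart as higher, at shares near the 8.16% of the whole surface class. These shares were 7.14% of cadherins, 10.0% of claudin and tight junction genes, 9.68% of the tetraspanin list and 8.33% of integrins. Of 42 cadherin genes 3 were set apart as higher and 0 as lower, of 30 claudin and tight junction genes 3 and 0, of 31 tetraspanin and EPCAM family genes 3 and 0, and of 24 integrins 2 and 0. The cadherins ran the other way against the mean, with 5 called higher and 10 lower, while the claudin list had 8 and 4, the tetraspanin list 6 and 4 and the integrins 6 and 3. Without the arrays labelled SKOV3, 5 cadherins were set apart as higher and 1 as lower, and 1 of the 3, CDH19, was lost with the mean of its probe sets (gap 0.83). CLDN16, a claudin of the kidney tubule, was at 9.31, 9.07 and 8.78 in IGROV1 and at 4.32, 4.74 and 5.70 as lowest, median and highest elsewhere. CLDN3 was at 11.02 against 6.80 or less by a probe set that can cross-hybridise, and MARVELD2, a protein of contacts between 3 cells, at 8.51 against 7.42 in TOV21G and 3.46 or less in the remaining lines. CLDN1 was not set apart, since it was at 11.59 in IGROV1 and 12.18 in TOV21G. CDH16, a cadherin of the kidney, was at 6.22 against 4.88 or less. The neural cadherin gene CDH2 was at 6.87, between the 4.13 of TOV21G and the 11.09 of the arrays labelled SKOV3.

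ICAM2, an adhesion molecule best known from endothelium and blood cells, was at 11.19, 11.34 and 11.30 in IGROV1, with a highest value of 6.82 among the other arrays (gap 4.49 ± 0.10, adjusted p = 4.3e-12). ITGA2, the collagen-binding integrin subunit, was at 9.95 against 6.86 or less. ITGB4, the laminin-binding subunit of hemidesmosomes, was at 8.34 against 5.53 or less, but with the mean of its 5 probe sets the gap was 0.99 and it was not set apart. TSPAN1, a tetraspanin of secretory epithelia, was at 8.93 against 5.87 or less.

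Of 52 receptor tyrosine kinase genes, 5 were set apart as higher (9.62%) and 3 as lower (5.77%), against 2.62% and 1.85% of all genes. Against the mean of the other lines 8 were called higher and 10 lower. MST1R, the receptor of macrophage stimulating protein, was at a mean of 7.90 in IGROV1 and at 5.09 or less in the other arrays. Its relative MET, the receptor of hepatocyte growth factor, was at 11.97 to 12.02, with line means of 10.40 in TOV21G, 3.47 in TOV112D and 8.52 in the SKOV3-labelled arrays (gap 1.60 ± 0.14, adjusted p = 1e-06). EPHA4 was at 7.38 against 6.33 or less, and KIT and ERBB4 were the other higher receptors, of which ERBB4 was lost with the mean of its probe sets (gap 0.83). On the low side, EPHA7, a guidance receptor of neural tissue, was at 3.21 against 6.66 to 10.77. PTK7, a receptor of planar polarity signalling, was at 7.07 and nearly equal in the other lines, at 8.62 to 8.67. TYRO3 was at 5.82 against 7.05 or more, and with the mean of its probe sets the gap was 0.90, under the limit.

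Ephrins are membrane-bound ligands of the Eph receptors. Of 29 genes of ephrins and of plexin and neuropilin type receptors, 0 were set apart as higher and 2 as lower (6.9%). The shares of all genes were 2.62% and 1.85%. Without the arrays labelled SKOV3 the counts were 2 and 2. EFNB2 was at 4.02, 3.26 and 3.39 in IGROV1, while the other 9 arrays had a lowest value of 9.33, a median of 9.52 and a highest of 11.04 (gap 5.81 ± 0.15, adjusted p = 1.4e-11). EFNB3 was at 5.02 against 7.10 to 8.39, by 1 of its 2 probe sets. Of 28 TNF receptor family genes, 2 were set apart as lower (7.14%, against 1.85% of all genes) and 0 as higher. These were TNFRSF19 and TNFRSF10D, at 5.50 and 7.19, and with the mean of probe sets their gaps were 0.91 and 0.76.

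Antigens studied as ovarian tumour targets held the largest share among the surface lists, with 8 of 24 measured genes (33.3%) set apart as higher and 1 as lower. Besides EPCAM, CLDN3 and CLDN16 these were F3, the tissue factor that starts coagulation, at 9.71 against 7.10 or less, and SLC34A2, a sodium-phosphate carrier, at 10.91 against 8.42 in TOV21G and 3.73 or less in the remaining lines. The immune checkpoint ligand VTCN1 was at 6.45 against 4.49 or less, the mucin MUC1 at 8.51 against 6.59 or less and mesothelin, MSLN, at 7.30 against 5.55 or less. MUC16, the gene of the serum marker CA125, was at 2.94 and between 2.79 and 3.01 in the other lines. The 1 lower member was PTK7. Of 48 immune recognition genes 4 were higher (8.33%, against 2.62% of all genes) and 0 lower. Among the 4 was CD55, an inhibitor of complement, at 8.64 against 7.21 or less.

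Proteases and their inhibitors were set apart in both directions. Hepatocyte growth factor and its relatives are released as inactive chains, cut by proteases such as ST14 (matriptase), and the inhibitors SPINT1 and SPINT2 block that step. SPINT1 was at a mean of 8.94 in IGROV1 and at 3.96, 4.30 and 4.88 as lowest, median and highest elsewhere (gap 4.22 ± 0.09, adjusted p = 3.1e-12). SPINT2 was at 11.04, 11.09 and 11.12 against 6.49, 7.11 and 7.36. Neither gene overlapped between IGROV1 and the other arrays, which was so for 13.2% of all genes tested on the high side. Of the 2 SPINT1 probe sets, 1 lay above every other line. ST14 was at 7.93 against 4.93 or less, and TMPRSS4, another membrane protease of epithelia, at 8.55 against 4.26 or less. MMP7, a metalloprotease of glandular epithelium, was at 11.99 against 9.17 in TOV21G, 4.67 in TOV112D and 6.97 in the SKOV3-labelled arrays.

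In all, 6 of 76 protease inhibitors were called higher and 9 lower than the mean of the other lines. Set apart were 6 as higher (7.89%) and 3 as lower (3.95%), against 2.62% and 1.85% of all genes. Of the 6, SERPINB1 was lost with the mean of its probe sets (gap 0.59). SLPI, an inhibitor of leukocyte elastase made by mucosal glands, was at 10.84, 10.88 and 10.82 in IGROV1, with 4.09, 4.84 and 5.21 as lowest, median and highest in the other arrays (gap 5.85 ± 0.21, adjusted p = 3e-10). Its relative PI3 was at 6.63 against 4.43 or less. The inhibitors of the tissue factor pathway were lower: TFPI was at 2.86, 3.21 and 3.15 in IGROV1 against 7.29, 9.61 and 11.26. TFPI2 was at 5.21 against 6.66 or more, by 1 of its 2 probe sets. F3, which TFPI inhibits, was on the high side. Among 89 protease genes 3 were higher and 3 lower (3.37% each, against 2.62% and 1.85% of all genes), and the lower gene MMP16 was lost with the mean of its probe sets.

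Ligands of the TGF-beta family differed in both directions, with 3 of 46 genes set apart as higher (6.52%) and 4 as lower (8.7%). The shares of all genes were 2.62% and 1.85%. Against the mean of the other lines 4 were called higher and 9 lower. INHBB, the beta B chain of activin and inhibin, was at 11.06, 11.09 and 11.06 in IGROV1, with 3.85, 4.79 and 5.43 as lowest, median and highest elsewhere (gap 5.76 ± 0.23, adjusted p = 7.3e-10). INHBA, the beta A chain, was at 3.60, 3.54 and 3.50 in IGROV1 against 5.12, 6.62 and 8.79. The chains thus differed in opposite directions from the same lines. TGFB1 was at 4.54, 3.40 and 3.93 against 6.92 or more, although only 1 of its 2 probe sets lay below every line. The bone morphogenetic protein gene BMP4 was at 4.62 against 7.16 or more and its antagonist NOG at 3.11 against 5.76 or more. BMP2 was higher, at 6.50 against 5.19 or less. BMP6, at 7.30 against 5.61 or less, was not set apart with the mean of its probe sets, where the gap was 0.39.

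SMAD and ID genes belong to the transcription lists and act downstream of these ligands. SMAD3, which carries the TGF-beta signal, was at 9.45 against 8.43 or less, with a gap of 1.02, and was not set apart with the mean of probe sets, where the gap was below 1. SMAD7, the inhibitor induced by the signal, was at 6.00 against 7.28 or more. ID2, a target of bone morphogenetic proteins, was at 8.13, 8.22 and 7.82 against 10.95, 12.17 and 12.96, and ID3 was at 9.79 against 10.92 or more. ID1 was not set apart, at 11.37 against 11.97 to 12.57.

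Growth factor genes were set apart in 7 of 78 cases as higher (8.97%) and 4 as lower (5.13%), against 2.62% and 1.85% of all genes. Against the mean of the other lines 11 were called higher and 15 lower. FGF18 was at 11.77, 11.73 and 11.71 in IGROV1 and at 5.88, 6.72 and 7.32 as lowest, median and highest elsewhere (gap 4.46 ± 0.06, adjusted p = 2e-14), and 5 of its 6 probe sets lay above every other line. FGF2 was at 2.68, 2.95 and 3.56 against 6.42, 7.97 and 8.59. WNT7A, a Wnt ligand of the Mullerian duct, was at 8.42 against 4.59 or less. The EGF receptor ligand BTC was at 6.47 against 3.47 or less, and PDGFA at 7.94 against 5.64 or less. NRG1, the ligand of ERBB3 and ERBB4, was at 4.54 against 7.38 or more, with a gap of 0.67 by the mean of its 6 probe sets.

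Peptide hormones were set apart in 3 of 64 cases, 2 higher and 1 lower, and 5 and 8 were called against the mean. The shares set apart, 3.12% and 1.56%, were near the 2.62% and 1.85% of all genes. NMU, a neuropeptide of gut and brain, was at 12.44, 12.45 and 12.42 in IGROV1, with 4.83, 5.92 and 7.27 as lowest, median and highest in the other arrays (gap 5.31 ± 0.14, adjusted p = 7.9e-12). Galanin, GAL, was at 10.53 against 8.84 in the arrays labelled SKOV3 and 3.55 or less in the remaining lines, by 1 of its 2 probe sets. ADM, a vasodilator peptide induced by low oxygen, was lower at 6.38 against 8.63 or more. Chemokines and interleukins gave 1 of 89 genes (1.12%), and that was the receptor gene IL6R, which the name pattern of the list had included. It was lost with the mean of its probe sets (gap 0.97).

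Of 75 matrix genes, 9 were set apart as higher and 2 as lower, while 1 of 43 collagens was higher and 0 lower. Against the mean of the other lines more were lower than higher, with 11 higher and 23 lower matrix genes and 3 higher and 11 lower collagens. Of the matrix genes, 10 were set apart as higher and 5 as lower without the arrays labelled SKOV3. SPON1, a glycoprotein that guides axons, was at 11.44 against 7.01 or less, and all 5 of its probe sets lay above every other line. LAMB3, a laminin chain of epithelial basement membranes, was at 8.84 against 5.12 or less, and NID2, a basement membrane linker, at 11.86 against 9.54 in TOV21G, 2.98 in TOV112D and 6.64 in the SKOV3-labelled arrays. COL4A4, a collagen chain of specialised basement membranes, was at 5.87 against 3.12 or less. The lower members were MATN2 and LAMA4. MATN2 was at 3.65 against 7.15 or more, by 1 of its 2 probe sets, and LAMA4 was not set apart with the mean of its probe sets (gap 0.76).

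**Figure D3:**
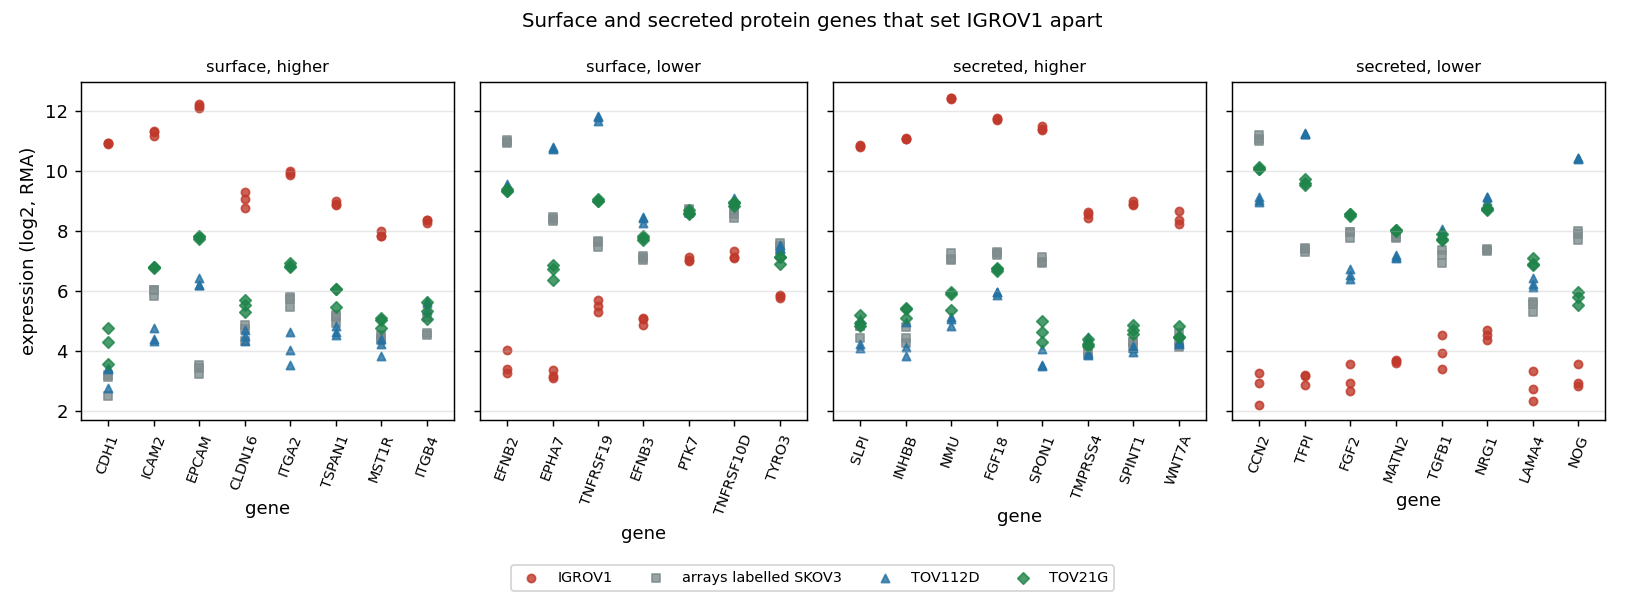
Expression (log2, RMA) of the surface and secreted protein genes with the widest gaps, up to 8 per direction, leaving out dim genes and _x_at probe sets. Each point is 1 array and colours mark the lines. Only 7 surface genes were set apart as lower, and INHBB, at 11.06 to 11.09 in IGROV1, lies above the 5.43 reached elsewhere.

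CCN proteins are secreted modulators of matrix signalling. Of 14 genes of the CCN family and the insulin-like growth factor binding proteins, 2 were set apart as higher (14.3%) and 3 as lower (21.4%). The shares of all genes were 2.62% and 1.85%. Against the mean of the other lines 3 were called higher and 7 lower. CCN2, a target of the coactivators YAP1 and WWTR1, which act through TEAD factors, was at 2.92, 3.28 and 2.21 in IGROV1 and at 8.98, 10.08 and 11.20 as lowest, median and highest elsewhere (gap 6.26 ± 0.20, adjusted p = 3.9e-11). CCN3 was higher, at 8.42, 8.47 and 8.41 against 2.07, 2.87 and 4.98. IGFBP6 was at 4.89 against 7.50 or more, and IGFBP4 at 4.56 against 5.85 or more. Because CCN2 had the widest gap among the named lower genes, the 250 bases before its start are shown from RefSeq (GRCh38.p14, chr6:131951373-131951622, minus strand), with the TEAD motif GGAATG or its complement CATTCC in capitals.
CCN2: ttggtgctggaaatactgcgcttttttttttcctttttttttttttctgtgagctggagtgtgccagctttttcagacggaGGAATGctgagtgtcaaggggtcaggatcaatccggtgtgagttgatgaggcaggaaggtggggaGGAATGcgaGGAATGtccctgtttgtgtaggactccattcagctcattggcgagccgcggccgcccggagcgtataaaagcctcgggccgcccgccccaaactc
The motif stood at 169, 104 and 95 bases before the start. It was found in 1579 of 15384 such windows of measured genes (10.3%), and of the 4 set apart targets of YAP and TEAD with a window in the table, CCN2, FJX1, NT5E and RBMS3, it was found in CCN2 only. A match describes letters and not a bound site.

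Target genes of YAP and TEAD were listed as a group. Of 22 measured, 5 were set apart as lower (22.7%) and 1 as higher (4.55%), against 1.85% and 2.62% of all genes. Against the mean of the other lines 8 were called lower and 4 higher, and the median difference was -0.05. FJX1 was at 6.54 against 8.11 or more, and ASAP1 at 8.69 against 9.73 or more. NT5E and RBMS3 were at 2.56 and 2.24, and both missed the limit with the mean of their probe sets, with gaps of 0.59 and 0.96. CCN1, the closest relative of CCN2 among the targets, was at 11.62, between the 10.38 of TOV112D and the 12.18 of TOV21G, and AMOTL2 was at 10.57 against 9.78 to 10.30. The coactivator gene WWTR1 was higher in IGROV1, at 12.43 against 11.17 or less, while YAP1 was at 10.08 against 10.64 to 11.33 and TEAD1 at 10.77 against 10.21 to 10.98.

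Transcription factors of the epithelial programme were set apart as higher in 4 of 18 cases (22.2%) and as lower in 0. EHF, an ETS factor of glandular epithelium, was at 8.90, 8.58 and 8.67 in IGROV1, with 2.92, 3.14 and 3.83 as lowest, median and highest elsewhere (gap 5.19 ± 0.19, adjusted p = 3e-10), and all 6 of its probe sets lay above every other line. OVOL2, a repressor of mesenchymal genes, was at 5.74 against 3.60 or less, by 1 of its 2 probe sets. KLF5 was at 10.08 against 8.63 in TOV21G and 5.61 or less in the remaining lines. GRHL1 was at 6.91 against 5.88 or less and was lost with the mean of its probe sets (gap 0.72). Further factors of the programme were not called: GRHL2 was at 2.48 in IGROV1, with 2.52 to 2.65 elsewhere, and the splicing regulator ESRP1 was at 3.10 and at 2.97 to 3.29. ELF3 was at 8.31 in IGROV1 and 8.10 in TOV21G.

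Of 20 mesenchymal transition factors, 1 was set apart as lower and 1 as higher (5.0% each, against 1.85% and 2.62% of all genes). Against the mean of the other lines 7 were called lower and 2 higher. TWIST1 was at 3.19, 2.63 and 1.72 in IGROV1 and at 7.10, 7.86 and 12.18 as lowest, median and highest in the other arrays (gap 4.61 ± 0.26, adjusted p = 2e-08). ZEB2 and SNAI2 were low in IGROV1, at 2.05 and 2.52, and were also low in TOV21G, at 2.85 and 2.57. ZEB1, a direct repressor of CDH1, was at 7.80 in IGROV1, far above the 3.48 of TOV112D and below the 8.87 and 9.18 of the remaining lines. IGROV1 thus held CDH1 at 10.93 together with ZEB1 at 7.80. The intermediate filament gene VIM was at 12.62 in IGROV1 and at 13.46 to 13.80 elsewhere. The higher member was PRRX2, at 9.78 against 7.61 or less.

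Factors of Mullerian, renal and gonadal lineage were set apart as higher in 4 of 23 cases (17.4%) and as lower in 1, MEIS1, which was lost with the mean of its probe sets (gap 0.96). SOX17, a factor of endoderm and of the oviduct, was at 8.77, 8.82 and 8.84 in IGROV1 and at 2.44, 2.73 and 3.22 as lowest, median and highest elsewhere (gap 5.89 ± 0.14, adjusted p = 6.8e-12). MECOM was at 10.48 against 8.17 in TOV21G, 2.74 in TOV112D and 5.89 in the SKOV3-labelled arrays. FOXJ1, the factor of ciliated cells, was at 6.79 against 5.40 or less. GATA6 was at 8.12 against 5.98 or less, with a gap of 0.87 by the mean of its probe sets. PAX8 and PAX2 did not set IGROV1 apart, because TOV21G was close: PAX8 was at 10.26 and 10.04 and PAX2 at 8.37 and 7.99 in IGROV1 and TOV21G. For PAX8, 3 of 8 probe sets lay above every line in IGROV1.

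Lower transcription factors came from several families. ETV1, an ETS factor, was at 2.71, 2.27 and 2.41 in IGROV1 against 6.55, 7.11 and 8.25, by 1 of its 5 probe sets. The homeobox gene LHX2 was at 3.94 against 6.54 or more, the zinc finger gene GATA3 at 3.47 against 6.00 or more, and PBX3, a HOX cofactor, at 5.41 against 7.67 or more. KLF7 was at 3.63 against 5.41 or more and FOXD1 at 4.13 against 5.70 or more. The Hedgehog effectors GLI3 and GLI2 were at 5.63 and 4.89 in IGROV1, and GLI2 missed the limit with the mean of probe sets (gap 0.97). Of 28 HOX genes, 1 was set apart as higher (3.57%, against 2.62% of all genes) and 0 as lower. This was HOXB8, at 9.12 against 7.96 in TOV112D, and it was lost with the mean of its probe sets (gap 0.74). Without the arrays labelled SKOV3, 5 HOX genes were set apart as lower and 1 as higher, and of 103 other homeobox genes 7 were lower and 4 higher, in place of 3 and 2. The nuclear receptor list had 3 of 39 higher (7.69%, against 2.62% of all genes) and 0 lower, and 4 and 5 called against the mean. Of the 3, HNF4G was lost with the mean of its probe sets (gap 0.72). Among the others was NR1H3, a sterol sensor, at 7.42 against 6.23 or less. The interferon factor IRF8, best known from blood cells, was at 6.83 against 4.12 or less in the other arrays, and CEBPB, a factor of acute phase and gland genes, at 11.99 against 10.35 or less.

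**Figure D4:**
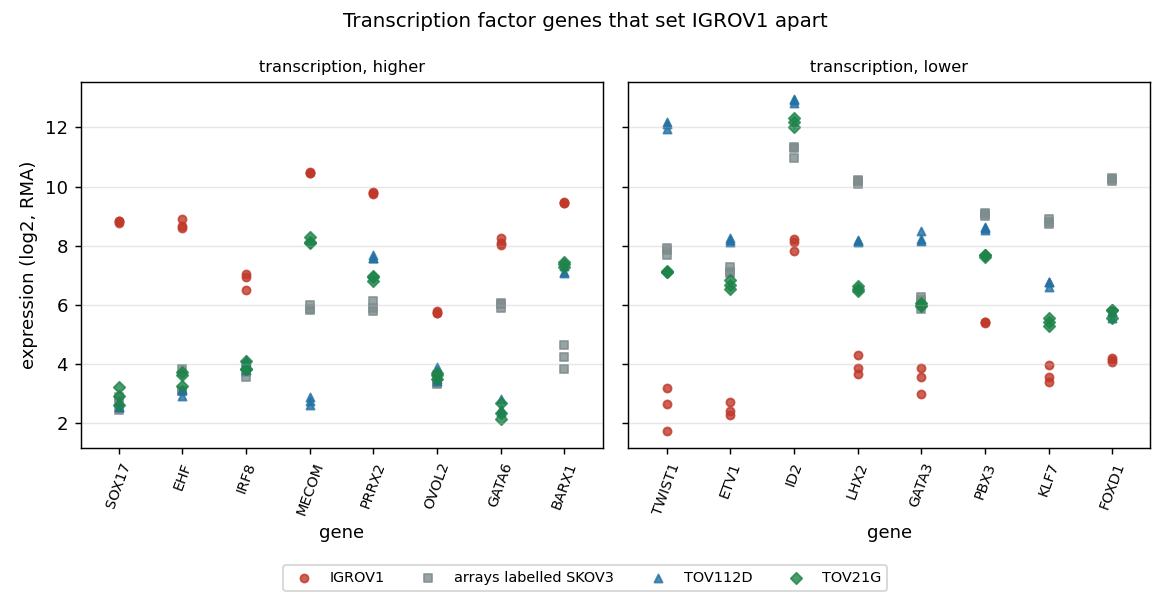
Expression (log2, RMA) of the 8 higher and 8 lower transcription factor genes with the widest gaps; each point is 1 array and colours mark the lines. SOX17 and EHF are near the floor in all 9 other arrays, while TWIST1 spans 7.10 to 12.18 there and 1.72 to 3.19 in IGROV1.

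Solute carriers were the largest metabolic list, with 14 of 327 genes set apart as higher (4.28%) and 5 as lower (1.53%), or 19 and 8 without the arrays labelled SKOV3. SLC3A1, the heavy chain of the cystine transporter of the kidney tubule, was at 10.09, 10.03 and 10.14 in IGROV1, with 3.13, 3.66 and 5.01 as lowest, median and highest elsewhere (gap 5.16 ± 0.07, adjusted p = 9.1e-14); 1 of its 3 probe sets lay above every line in IGROV1. SLC12A3, the thiazide-sensitive chloride cotransporter, was at 7.98, 8.15 and 8.33 against 3.53, 3.75 and 4.12. Both are textbook genes of the kidney tubule, as is SLC22A2, an organic cation transporter, at 6.58 against 3.52 or less. SLC27A2, a fatty acid transporter, was at 7.08 against 4.09 or less. The neuronal glucose transporter SLC2A3 was lower, at 3.45, 3.29 and 3.27 against 6.20, 8.88 and 12.82, while SLC2A1, the common glucose transporter, was at 8.39 in IGROV1 and between 4.53 and 9.40 elsewhere.

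Lists of central carbon metabolism are small. With all arrays, the shares of the TCA cycle, glycolysis and fatty acid oxidation lists lay near or below those of all genes. Of 26 genes of the TCA cycle 0 were set apart by limma in either direction, and 1 was called against the mean of the other lines. Glycolysis genes gave 1 higher and 1 lower of 43 (2.33% each, against 2.62% and 1.85% of all genes), and fatty acid oxidation 1 and 0 of 43. When the arrays labelled SKOV3 were left out, glycolysis gave 2 and 3, fatty acid oxidation 2 and 0, and the TCA cycle 0 and 1. Of 21 cholesterol synthesis genes, 0 were called higher and 3 lower than the mean of the other lines. Among the 21, 0 were set apart as higher and 1 as lower (4.76%, against 1.85% of all genes). That was EBP, the sterol isomerase, at 4.44, 4.22 and 3.84 in IGROV1 and at 9.19, 9.41 and 9.99 as lowest, median and highest elsewhere (gap 5.12 ± 0.14, adjusted p = 1.8e-11). Other enzymes of the pathway were not set apart: MSMO1 was at 10.50 against 9.82 to 10.26, SC5D at 9.90 against 8.87 to 10.76 and DHCR7 at 8.81 against 7.48 to 8.66.

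Of 86 genes of sphingolipid and phospholipid metabolism, 5 were set apart as higher (5.81%) and 1 as lower (1.16%), against 2.62% and 1.85% of all genes. Without the arrays labelled SKOV3 the counts were 8 and 2. With the mean of probe sets, 3 of the 5 were lost: SPTLC2 (gap 0.94), LPCAT3 (0.33) and PLCG2 (0.32). SPHK1 makes sphingosine 1-phosphate and SGPP2 removes its phosphate. SGPP2 was at 8.43, 8.57 and 8.60 in IGROV1 against 2.72, 3.58 and 5.14, and SPHK1 at 3.47, 3.27 and 3.68 against 6.12, 7.51 and 9.31. The enzymes that make and break down this lipid thus differed in opposite directions. PTGES, the last enzyme of prostaglandin E2 synthesis, was at 10.15, 10.23 and 10.26 against 4.16, 4.83 and 6.81 (gap 3.52 ± 0.09, adjusted p = 1.3e-11).

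Nucleotide enzymes were set apart in 5 of 100 cases in each direction (5.0%), against 2.62% of all genes as higher and 1.85% as lower. Against the mean of the other lines 11 were called higher and 10 lower. Without the arrays labelled SKOV3, 7 were set apart as higher and 6 as lower. With the mean of probe sets, PDE4D (gap 0.66), NT5E (0.59) and PDE4A (0.25) were lost among the lower and ADSS1 (0.71) and DPYD among the higher. XDH, xanthine dehydrogenase, which makes uric acid, was at 8.53 against 6.29 in TOV21G and 3.66 or less in the remaining lines. The guanine deaminase GDA, one step before it, was at 11.93 against 10.37 in TOV21G and below 3 in the remaining lines. DPYD, which degrades uracil and the drug fluorouracil, was at 9.94 against 6.50 or less by its brightest probe set, but with the mean of its 3 probe sets the gap was 0.78.

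Of 82 amino acid and one-carbon genes, 3 were higher (3.66%) and 1 was lower (1.22%), against 2.62% and 1.85% of all genes. The counts were 5 and 1 without the arrays labelled SKOV3. ASS1, argininosuccinate synthase, was at 10.31, 10.43 and 10.46 in IGROV1 and at 4.17, 5.83 and 7.76 as lowest, median and highest elsewhere. CPS1, the enzyme that opens the urea cycle, was at 3.77, 3.43 and 4.59 against 5.13, 8.39 and 10.91 (gap 1.35 ± 0.24 to TOV112D, adjusted p = 0.00042). GLDC, the glycine decarboxylase, was at 11.72 against 10.45 or less. Among carbonyl and retinoid genes 3 of 59 were higher (5.08%) and 0 lower, or 3 and 2 without the arrays labelled SKOV3. The higher ones included the retinol carrier RBP4 at 6.10 against 3.75 or less. Cytochrome P450 and conjugation genes gave 3 of 92 higher (3.26%) and 4 lower (4.35%). Of the 4 lower, CYP1B1 was lost with the mean of its probe sets (gap 0.60). CYP1A1, induced by aryl hydrocarbons, was at 7.09 against 5.48 or less, and CYP27B1, which activates vitamin D, at 3.45 against 5.38 or more. Among glycosyltransferases ST6GALNAC1, which makes the sialyl-Tn antigen on mucins, was at 6.47 against 2.68 or less.

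**Figure D5:**
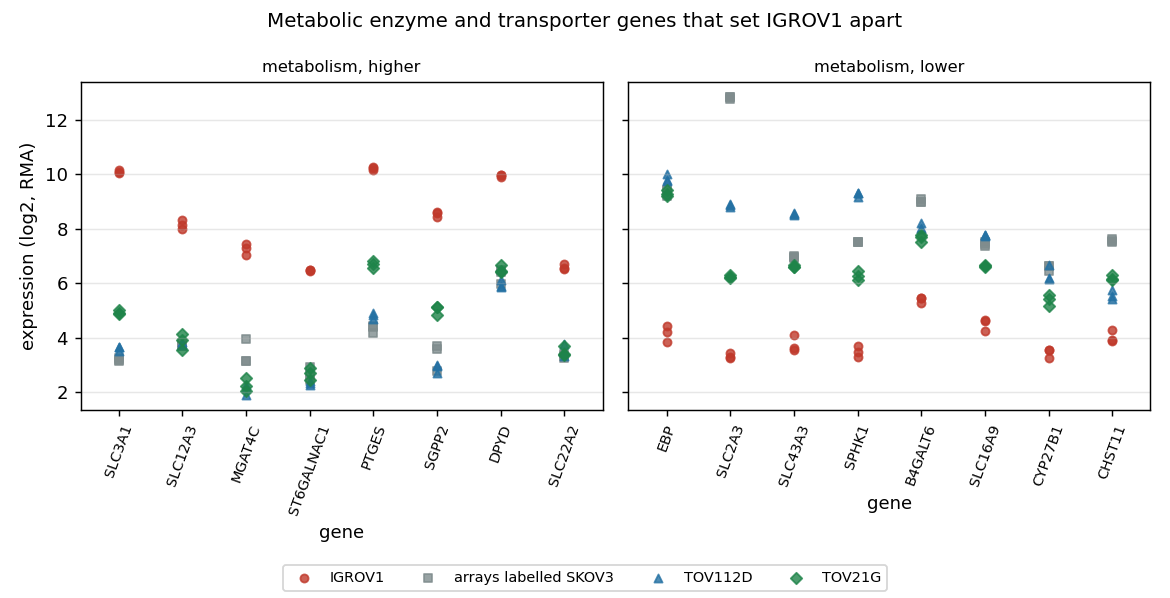
Expression (log2, RMA) of the 8 higher and 8 lower metabolic enzyme and transporter genes with the widest gaps; each point is 1 array and colours mark the lines. SLC3A1 is at 10.03 to 10.14 in IGROV1 and at 5.01 or less elsewhere, and EBP is at 4.44 or less against 9.19 or more.

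Several of the lowest genes of IGROV1 lie together on the X chromosome. The ARMCX, BEX and TCEAL genes at Xq22 arose by duplication in placental mammals, and their functions are only partly known. Of 20 measured, 12 were called lower than the mean of the other lines and 0 higher, against 7.1% and 7.2% of all genes, and 5 (25.0%) were set apart as lower: ARMCX6, ARMCX3, TCEAL8, BEX4 and GPRASP3. ARMCX6 was at 4.02, 3.38 and 3.13 in IGROV1 and at 9.66, 10.86 and 10.95 as lowest, median and highest elsewhere, by 1 of its 2 probe sets. TCEAL8 was at 2.65, 2.29 and 2.63 against 8.53, 9.31 and 9.75, and BEX4 at 2.41, 2.29 and 2.17 against 5.28, 7.95 and 10.35.

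Other genes of the cluster were not called lower than each line. BEX3 was at 12.12 against 12.02 to 12.82, TCEAL4 at 10.89 against 10.52 to 11.62 and TCEAL9 at 10.76 against 10.93 to 11.42. ARMCX2, ARMCX4 and BEX1 were at 2.85, 2.34 and 4.08 in IGROV1 and were also low in TOV21G, at 2.69, 2.49 and 3.94. Of all 696 measured genes of the X chromosome, 24 (3.45%) were set apart as lower and 7 (1.01%) as higher, and EBP is among the lower ones.

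The upstream windows of 3 of these genes are shown because CG pairs, the sites of DNA methylation, can be counted in them; the data hold no methylation. Capitals mark the CG pairs, and the windows are the 250 bases before each start in RefSeq, GRCh38.p14: ARMCX6 at chrX:101618001-101618250 (minus strand), TCEAL8 at chrX:103255156-103255405 (minus strand) and BEX4 at chrX:103214842-103215091 (plus strand).
ARMCX6: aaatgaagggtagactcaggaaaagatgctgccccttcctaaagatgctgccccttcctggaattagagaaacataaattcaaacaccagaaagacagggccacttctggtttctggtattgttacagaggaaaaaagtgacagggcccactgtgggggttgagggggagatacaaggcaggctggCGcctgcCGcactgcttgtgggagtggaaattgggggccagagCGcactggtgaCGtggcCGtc
TCEAL8: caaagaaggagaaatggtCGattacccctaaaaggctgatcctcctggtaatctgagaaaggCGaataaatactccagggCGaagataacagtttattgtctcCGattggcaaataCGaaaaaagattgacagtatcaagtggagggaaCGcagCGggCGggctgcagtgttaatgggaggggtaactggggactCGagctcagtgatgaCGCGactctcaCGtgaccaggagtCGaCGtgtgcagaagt
BEX4: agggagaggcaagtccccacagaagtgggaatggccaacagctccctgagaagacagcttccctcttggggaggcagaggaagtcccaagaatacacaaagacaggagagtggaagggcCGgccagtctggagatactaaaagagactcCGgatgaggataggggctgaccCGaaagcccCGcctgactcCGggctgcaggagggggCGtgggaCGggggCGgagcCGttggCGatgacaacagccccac
They held 5, 14 and 10 CG pairs. Over the 18 genes of the list with a window the median was 10.5 and the range 2 to 25, against a median of 18 over all 15384 windows. The windows of BEX3 and TCEAL4, which were not set apart, held 4 and 7. For the epithelial genes set apart as higher, 13 of 25 had a window in the table, and 2 of these (15.4%) held the E-box CACCTG or CAGGTG, against 16.8% of all windows.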

How the data were processed

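The authors deposited 1 table of log2 values, and the submitters' processing notes name RMA and affy, without versions. RMA subtracts background, quantile-normalizes arrays and fits probe effects, so differences in total RNA content cannot be seen. No detection calls were used, and where a line lies at the floor the size of a difference is set partly by the floor.

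Probe sets were named from the platform annotation: 42898 of 54675 were listed, 1801 of them with several genes, which were left out together with 62 control probe sets. Symbols were updated through RefSeq (GRCh38.p14), which holds 19738 of the 19775 genes. Where a gene had several probe sets, that with the highest 12-array mean stood for it; for 1140 genes it was an _x_at probe set, which can cross-hybridise.

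The tests used limma 3.58.1 (R 4.3.3), with 1 mean per line (8 residual degrees of freedom) and Benjamini-Hochberg adjustment within each contrast. Each of the 186 set apart genes named by the rule below or as markers had an adjusted p of at most 0.00092 against each line. The median standard error against the mean of the other lines was 0.0766. Simulated data, with 1 common mean per gene for all lines and only the spread between arrays, served to check the code. There 50 of 50 genes changed by 1.5 on the log2 scale were called in this comparison. Of 50 genes changed by -1.5, 49 were set apart, and no other gene was called. As the simulated lines did not differ otherwise, this cannot give the rate of false calls in the real data.

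Genes were named by gap: up to 8 per direction and class, up to 3 further per list and direction, and 12 per direction over all genes, leaving out dim genes and _x_at probe sets. CLDN3, EPHA4, MUC1, MSLN, ASAP1, LRRN4 and PECAM1, and CLDN7 as the gene just outside the limit, were named after their values were seen, as were genes given as not set apart. Members and lists were chosen with earlier results of these data known. Promoter windows came from RefSeq. The alternatives tried are in the closing section.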

Additional observations from a re-analysis of the deposited data

How the results depend on the processing

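The number of arrays limits the precision. The genes followed here are the 186 set apart genes named by rule or as markers, without those named after their values were seen. None of them changed direction under any alternative. Of the 186, 34 were not set apart when the probe sets of a gene were averaged, 3 with arrays centred on the median and 5 after quantile normalization. With the mean of probe sets 397 of the 518 higher and 255 of the 366 lower genes were kept. Leaving out each array gave 1408 to 1453 higher and 1385 to 1413 lower genes against the mean, and 508 to 522 and 362 to 373 set apart; by class, higher and lower, surface 23 to 25 and 7 to 8, secreted 33 to 35 and 19 to 21, transcription 19 to 21 and 14 to 17, and metabolism 41 to 42 and 21 to 24. Same-numbered arrays of different lines were not paired (correlations of deviations of -0.10 to 0.13), and with the replicate number as a block 518 and 366 genes were set apart, as without it. With the other 9 arrays as 1 group, 803 genes were higher and 585 lower, since that fit counts the spread between lines as error. Without the arrays labelled SKOV3 the lower set apart genes numbered 570 in all, 12 in the surface, 27 in the transcription and 39 in the metabolism class, since fewer lines had to be cleared. Without a fold minimum 5380 genes were higher and 5548 lower, with 2239 and 1747 set apart; by class, higher and lower, these were surface 54 and 22, secreted 53 and 46, transcription 61 and 41, and metabolism 176 and 93. With a minimum of 2 on the log2 scale 530 were higher and 519 lower, with 177 and 143 set apart; by class surface 12 and 4, secreted 20 and 11, transcription 8 and 6, and metabolism 15 and 6.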

Other observations

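Keratins and genes of the epidermal barrier, which lie outside the 4 classes, were set apart as higher in IGROV1 in 9 of 81 cases (11.1%) and as lower in 0, against 2.62% and 1.85% of all genes. The counts were 11 and 0 without the arrays labelled SKOV3. FLG, the filaggrin of cornified skin, was at 8.89 in IGROV1 and at 2.60 or less in the other lines. S100A2, a calcium-binding protein of basal epithelium, was at 10.80 against 6.72 or less, and S100A14 at 6.88 against 4.26 or less. KRT7 was at 10.04 against 6.06 or less, though 1 of its 4 probe sets lay above every other line. KRT8 and KRT18 were not set apart, with KRT18 at 11.77 in IGROV1 and 12.62 in the arrays labelled SKOV3. Of 11 plaque genes of desmosomes and hemidesmosomes 3 were higher (27.3%) and 1 was lower (9.09%), against the same shares of all genes. The plakophilin gene PKP3 was at 9.30 against 6.95 or less and the periplakin gene PPL at 7.89 against 5.75 or less.

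Of 7 measured mismatch repair genes 1 was set apart, as lower (14.3%, against 1.85% of all genes). This was MSH6, at 6.79, 6.70 and 6.78 in IGROV1 against 10.11 to 11.14, with 2 of its 4 probe sets below every line. Of 40 cancer-testis antigen genes 0 were set apart as higher and 1 as lower (2.5%, near the 1.85% of all genes). That was TEX15, at 3.16 against 6.02 or more.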
